A study of Homo sapiens with 6 samples.

Results

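The genes described here were 137 long noncoding RNA (lncRNA) genes whose RNA level differed at least 2-fold between A172 cells carrying an RBFOX1 construct and A172 cells carrying a GFP construct. They were chosen from 58051 genes in the count files. Of these, 14157 had the GENCODE biotype lncRNA, and 30 of them, with the symbols H19, MEG3 or SNHG followed by a number or name, were left out by symbol. Of the remaining 14127, 6994 had no count in any library and 1129 had a mean of 1 CPM or more (counts scaled to 1000000 gene counts per library), here called the measured lncRNA genes. A measured gene was taken when the ratio of the RBFOX1 mean to the GFP mean, each with 0.1 CPM added, was 2 or more or 0.5 or less and when no library of one group lay within the range of the other. The selection therefore used the very levels that are given below, and these are a description with no test.

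A172 is a human glioblastoma cell line. All cells had been transduced with lentivirus packaged in HEK293T cells, to make stable cells with GFP as the control or with RBFOX1. The labels give 3 samples of each, which the study's methods call biological replicates without saying whether each is a separate transduction, so p-values measure the spread between these samples. The control thus had the same vector backbone, transduction procedure and culture as the RBFOX1 samples, but carried a different construct. The GFP and RBFOX1 cells were made with separate viruses. Other differences between these stable cells therefore cannot be told apart from the effect of the protein made. Whether the stable cells are a pool or 1 clone is not given in the sources used here. Total RNA was depleted of ribosomal RNA and sequenced with strand retained, so unpolyadenylated transcripts could be counted. An antisense transcript and the gene opposite were counted by strand, and how completely this separated them was not measured.

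The libraries held 7433414 to 23249221 gene counts, the shallowest being RBFOX1 replicate 1 and the deepest GFP replicate 1. GFP replicate 1 stood apart from its group, its counts over genes giving chi-square values of 8.08 and 8.23 for each degree of freedom against replicates 2 and 3, which differed from each other by 1.60, while RBFOX1 libraries differed by 1.88 to 2.80. RBFOX1 itself had 4, 0 and 1 counts in the GFP libraries and 10276, 16467 and 21451 in the RBFOX1 libraries, which matches the labels. Of the markers of the line, VIM, NES and CD44 were abundant, while GFAP had at most 4 counts and S100B at most 2. Of the markers of other cell types, CD68 and RBFOX3 had at most 4 and 3 counts, whereas SYT1 and MAP2, genes of neurons, were well detected and differed in opposite directions. SYT1 was at 89.7 to 100.3 CPM in the GFP libraries and 42.6 to 44.8 CPM in the RBFOX1 libraries, and MAP2 at 7.14 to 8.27 CPM against 20.2 to 27.1 CPM. The markers of the line also differed in both directions. SOX2, a gene of neural stem cells, was at 1.29 to 1.90 CPM against 8.85 to 10.2 CPM, and NES at 235.3 to 257.6 CPM against 378.5 to 402.6 CPM. OLIG2 was at 8.09 to 9.54 CPM against 5.47 to 7.17 CPM, VIM at 4046 to 4456 CPM against 2757 to 2815 CPM, and CD44 at 810 to 1075 CPM against 510 to 577 CPM. EPCAM, a marker of epithelium, had 17, 11 and 8 counts in the GFP libraries and 6, 12 and 20 in the RBFOX1 libraries. PTPRC had 38, 10 and 13 counts in the GFP libraries and 27, 58 and 74 in the RBFOX1 libraries, and PECAM1 had 13, 5 and 8 against 41, 51 and 61. In bulk RNA, fewer cells of a type and less RNA per cell cannot be told apart, and the part of these markers in the results below was not tested.

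lncRNAs are transcribed by RNA polymerase II and are mostly spliced, but code for no known protein. Some act near the place where they are made, some act elsewhere in the nucleus or cytoplasm, and some are precursors from whose exons or introns microRNAs are cut. Many lie antisense to a protein-coding gene or start next to its promoter in the opposite direction, and the names of such genes end in -AS or -DT. RBFOX1 is a splicing factor that binds RNA at the letters GCATG, most strongly when a T precedes them.

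Because 9 of the 137 genes hold microRNA genes on their own strand, the mature microRNAs that these transcripts can carry are shown first. The sequences are from RefSeq (GRCh38.p14), written 5′ to 3′, with the seed (bases 2 to 8) in capitals. The microRNAs were not measured in these libraries, and many mature microRNAs are also made from other loci. Host genes lower in the RBFOX1 libraries carry the following sequences.
hsa-miR-100-5p (MIR100HG): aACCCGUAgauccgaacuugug
hsa-let-7a-5p (MIR100HG): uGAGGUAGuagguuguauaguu
hsa-miR-125b-5p (MIR100HG): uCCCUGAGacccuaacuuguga
hsa-miR-221-3p (MIR222HG): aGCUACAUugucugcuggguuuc
hsa-miR-222-3p (MIR222HG): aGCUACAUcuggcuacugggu
hsa-miR-181a-5p (MIR181A1HG): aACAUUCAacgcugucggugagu
hsa-miR-181b-5p (MIR181A1HG): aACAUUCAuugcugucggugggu
hsa-miR-5087 (LINC01138): gGGUUUGUagcuuugcuggcaug

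Host genes higher in the RBFOX1 libraries carry these.
hsa-miR-143-3p (CARMN): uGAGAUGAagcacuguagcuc
hsa-miR-145-5p (CARMN): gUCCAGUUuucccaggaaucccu
hsa-miR-503-5p (MIR503HG): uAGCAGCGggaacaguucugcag
hsa-miR-199a-5p (DNM3OS): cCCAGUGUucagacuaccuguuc
hsa-miR-214-3p (DNM3OS): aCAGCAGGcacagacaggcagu
hsa-miR-130a-5p (MIR130AHG): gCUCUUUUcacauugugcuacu
hsa-miR-4435 (CYTOR): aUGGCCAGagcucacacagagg

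The seed GCUACAU is shared by miR-221-3p and miR-222-3p, and ACAUUCA by miR-181a-5p and miR-181b-5p. The miR-221 and miR-222 sequences lie in an intron of MIR222HG at chrX:45746180-45746202 and chrX:45747036-45747056 on the minus strand. The miR-143-3p sequence lies in an exon of CARMN at chr5:149428978-149428998, and miR-145-5p in an intron at chr5:149430661-149430683, both on the plus strand. The miR-214-3p sequence lies in an exon of DNM3OS at chr1:172138816-172138837 on the minus strand.

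Of the 137 genes, 67 were higher in the RBFOX1 libraries (5.93% of the 1129 measured lncRNA genes) and 70 were lower (6.2%). By the same rule, 7.88% of 12276 protein-coding genes were higher and 3.41% were lower. The median ratio of the higher genes was 2.74 and the median fold of the lower genes was 2.44. Most genes lay near the limit, since 39 of the higher and 51 of the lower genes differed 2- to 3-fold, 17 and 9 differed 3- to 5-fold, and 11 and 10 more than 5-fold. The median log2 ratio over all measured lncRNA genes was -0.03. Just inside the limit lay DSP-AS1 and ENSG00000274370 at a ratio of 2.005 each, and KCNJ5-AS1 at 0.492 and ENSG00000276851 at 0.495. Just outside lay ZFHX3-AS1 at 1.98, KCNH1-IT1 at 1.98, HOTAIRM1 at 0.506 and ENSG00000274265 at 0.512.

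One further gene, ENSG00000281181, met the ratio but not the separation of the groups. It had 171, 4 and 7 counts in the GFP libraries and 4, 2 and 2 in the RBFOX1 libraries, so its mean difference came from GFP replicate 1.

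Summed over the 67 higher genes, the GFP libraries held 250 to 266 CPM and the RBFOX1 libraries 729 to 780 CPM. Summed over the 70 lower genes, the GFP libraries held 875 to 899 CPM and the RBFOX1 libraries 281 to 294 CPM. Within a group the median coefficient of variation of a gene was 13.5%, and among the 21 most abundant genes, at a mean of 10 CPM or more, it was 7.05%. Many members were scarce: 33 had fewer than 30 counts summed over the group where they were lower, and counting error alone makes their ratios uncertain.

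**Figure D1:**
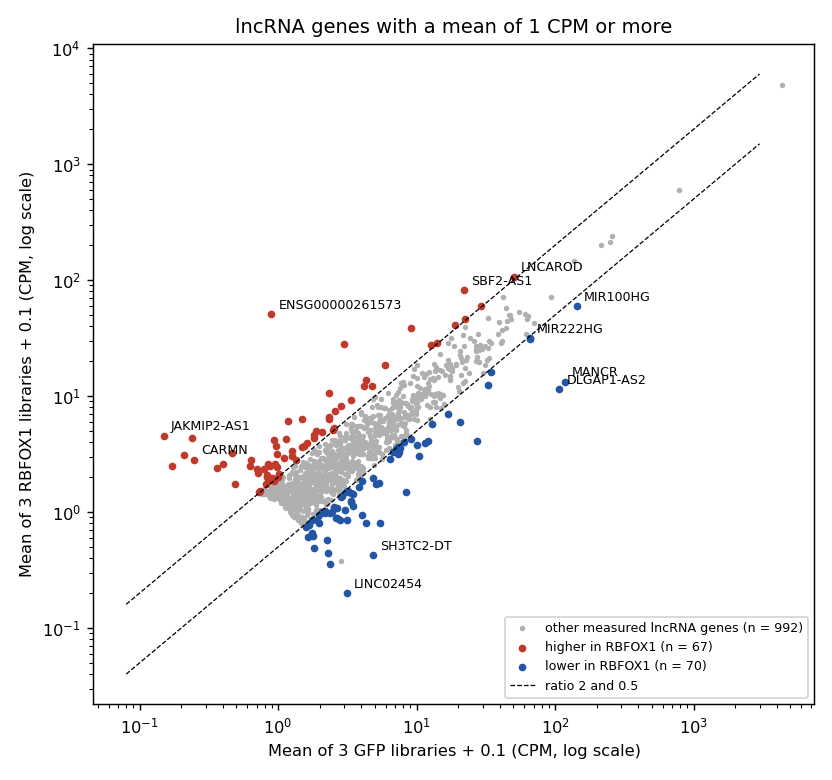
Mean level of each measured lncRNA gene in the 3 GFP libraries (x axis) and the 3 RBFOX1 libraries (y axis), in CPM plus 0.1 on log scales. Red points are the 67 higher genes, blue points the 70 lower genes, grey points the 992 others, and the dashed lines are ratios of 2 and 0.5. ENSG00000261573 lies farthest above the lines, and MANCR and DLGAP1-AS2 are abundant genes far below them.

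The gene with the largest ratio by the rule, with 0.1 CPM added to each mean, was ENSG00000261573, which has no symbol beyond its identifier. It lies inside PTPRC on the opposite strand (chr1:198657553-198667061, minus strand, GRCh38). It was at 0.817, 0.742 and 0.820 CPM in the GFP libraries and at 49.0, 49.8 and 53.1 CPM in the RBFOX1 libraries. The counts were 19, 9 and 11 against 364, 619 and 792. The means were 0.793 ± 0.0442 and 50.6 ± 2.19 CPM (SD, n = 3 each), a ratio of 56.8. With counts and library totals each summed over a group and nothing added, the ratio was 63.9 here and larger in the scarcer JAKMIP2-AS1. Per kilobase of its annotated exons it was the most abundant of the 137 genes in the RBFOX1 libraries, at 122 CPM per kb. PTPRC, which codes for the leukocyte phosphatase CD45, also rose, with a log2 fold change of 1.82 ± 0.23 (SE, edgeR adjusted p = 1.79e-06).

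LINC01133, an intergenic lncRNA studied in several carcinomas, was the most abundant of the other genes that differed more than 5-fold upward. It was at 2.28, 3.05 and 3.28 CPM in the GFP libraries and at 30.1, 27.4 and 26.6 CPM in the RBFOX1 libraries, a ratio of 9.47. The groups were far apart in this gene relative to their spread, with means of 2.87 ± 0.524 and 28.0 ± 1.87 CPM (SD, n = 3 each). ENSG00000276850 had 17, 9 and 24 counts against 35, 83 and 96, a ratio of 5.09. Its transcript matches that of ANXA8 over 98.5% of its length at 98.7% identity, so the division of reads between the genes is uncertain, and ANXA8 itself had 22, 14 and 13 counts against 38, 61 and 74.

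In 4 of the higher genes every GFP library had at most 3 counts. JAKMIP2-AS1 had 0, 0 and 2 counts in the GFP libraries and 36, 51 and 66 in the RBFOX1 libraries. Its summed ratio, from counts and library totals summed over each group with nothing added, was 107 (95% interval 29.2 to 894), beside 30.4 by the rule. STEAP3-AS1 had 2, 2 and 1 counts against 15, 43 and 54, a summed ratio of 31.4 (13.1 to 98.7), beside 15.02 by the rule. VAC14-AS1 had 3, 1 and 0 counts against 11, 41 and 36, a summed ratio of 30.9 (11.6 to 116), beside 14.7 by the rule. CARMN, a lncRNA of cardiac and smooth muscle cells that holds miR-143 and miR-145, had 3, 2 and 2 counts against 22, 35 and 36, a summed ratio of 18.6 (8.70 to 47.6), beside 11.4 by the rule. These exact intervals cover counting error only. Every RBFOX1 library exceeded every GFP library in each of these genes, as the rule demanded, but the size of the ratio is poorly fixed.

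Of the remaining genes with the 10 largest ratios, LINC01915 had 4, 2 and 1 counts in the GFP libraries and 30, 49 and 70 in the RBFOX1 libraries. Its ratio was 18.2 by the rule and 29.9 from summed counts and library totals. ENSG00000258711 had 11, 4 and 4 counts against 27, 35 and 43, ratios of 6.87 and 7.75 on the same scales. LINC03068 had 3, 7 and 1 counts against 19, 34 and 23, ratios of 6.6 and 9.69. ENSG00000251095 had 4, 6 and 3 counts against 19, 35 and 32, ratios of 6.57 and 9.28. All 4 were close to absent in the GFP libraries and still scarce in the RBFOX1 libraries.

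**Figure D2:**
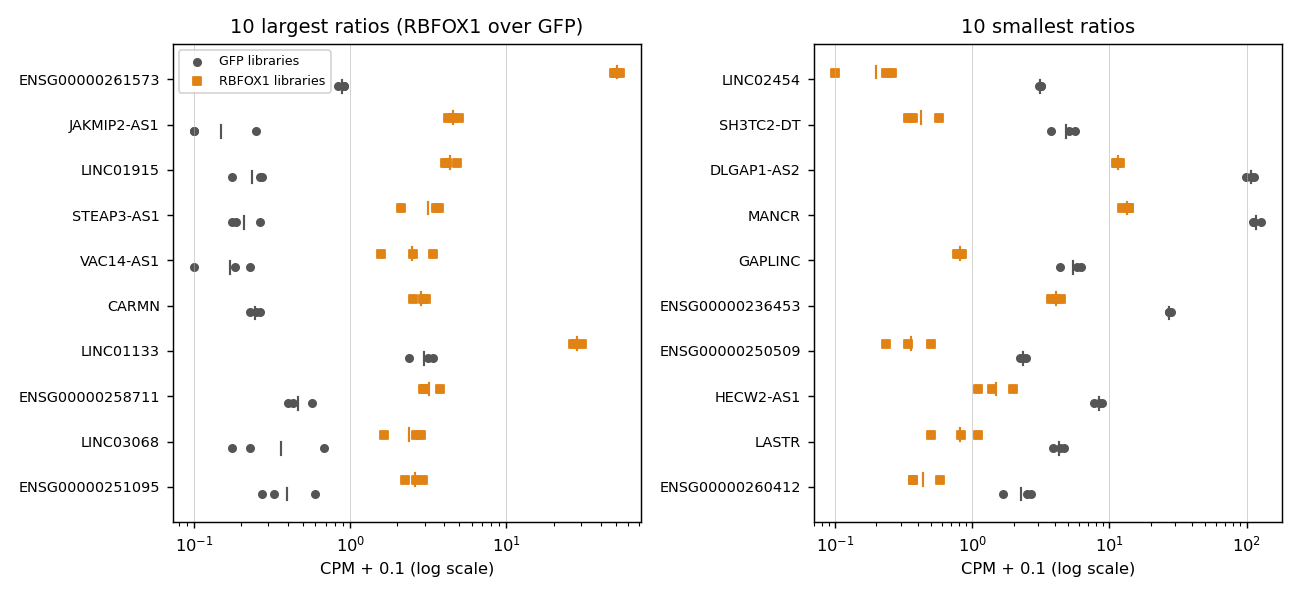
Level of the genes with the 10 largest (left) and 10 smallest (right) ratios in each library, in CPM plus 0.1 on a log scale. Grey circles are the 3 GFP libraries, orange squares the 3 RBFOX1 libraries, and the vertical bars the group means. MANCR and DLGAP1-AS2 are above 99 CPM in every GFP library, whereas most genes of the left panel are below 1 CPM there.

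Among the lower genes, MANCR and DLGAP1-AS2 combined a high level with a large difference. MANCR, named mitotically associated long noncoding RNA, was at 128, 113 and 111 CPM in the GFP libraries and at 13.7, 13.8 and 12.2 CPM in the RBFOX1 libraries, an 8.78-fold lower level. DLGAP1-AS2 was at 114, 108 and 99.5 CPM against 11.0, 11.2 and 11.9 CPM, a 9.34-fold lower level. Per kilobase of exon these were the most abundant of the 137 genes in the GFP libraries, at 37.3 and 29.1 CPM per kb. ENSG00000236453 followed at 25.6 CPM per kb, and it was at 27.8, 26.9 and 26.9 CPM in the GFP libraries and at 3.63, 4.34 and 3.96 CPM in the RBFOX1 libraries, 6.69-fold lower.

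The smallest ratio belonged to LINC02454 (chr12:65589111-65614169, plus strand), which had 71, 36 and 41 counts in the GFP libraries and 0, 2 and 2 in the RBFOX1 libraries. The ratio from summed counts and library totals was 0.0379 (95% interval 0.0102 to 0.0991). SH3TC2-DT had 129, 60 and 49 counts against 2, 3 and 7, 11.3-fold lower by the rule. GAPLINC, a lncRNA first described in gastric adenocarcinoma, was at 6.15, 5.69 and 4.25 CPM against 0.673, 0.724 and 0.738 CPM, 6.73-fold lower. In these genes the RBFOX1 libraries lay close together and near 0.

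LASTR, a lncRNA linked to splicing through the factor SART3, was at 4.56, 4.29 and 3.80 CPM in the GFP libraries and at 0.404, 0.724 and 1.01 CPM in the RBFOX1 libraries, 5.32-fold lower. HECW2-AS1 was at 8.69, 8.33 and 7.68 CPM against 1.88, 1.29 and 1.01 CPM, 5.58-fold lower. ENSG00000250509 had 52, 26 and 32 counts against 1, 3 and 6, and ENSG00000260412 had 60, 29 and 21 against 2, 6 and 4. Their folds were 6.55 and 5.18, on few counts in the RBFOX1 libraries.

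The most abundant of the 137 genes on the CPM scale was MIR100HG, whose introns hold miR-100, let-7a-2 and miR-125b-1. It was at 143, 143 and 145 CPM in the GFP libraries and at 65.7, 57.4 and 55.0 CPM in the RBFOX1 libraries, 2.42-fold lower. MIR222HG was at 65.9, 68.2 and 62.7 CPM against 30.4, 32.5 and 31.0 CPM, 2.09-fold lower. MIR181A1HG was at 2.84, 3.46 and 2.61 CPM against 0.942, 1.05 and 2.21 CPM, 2.05-fold lower. The groups were separated by wide gaps in MIR100HG and MIR222HG, but in MIR181A1HG RBFOX1 replicate 3 lay just under the lowest GFP library. LINC01138, which holds miR-5087 in an intron, was at 8.82, 9.98 and 11.3 CPM against 3.50, 3.54 and 4.09 CPM, 2.66-fold lower.

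Among the host genes that were higher, DNM3OS, the transcript that holds miR-199a-2 and miR-214 opposite DNM3, was at 4.90, 6.02 and 6.64 CPM in the GFP libraries and at 17.2, 20.7 and 17.4 CPM in the RBFOX1 libraries, a ratio of 3.11. MIR503HG was at 1.16, 0.825 and 0.596 CPM against 2.69, 4.26 and 3.82 CPM, a ratio of 3.84. MIR130AHG was at 0.860, 1.07 and 0.820 CPM against 2.02, 1.93 and 2.08 CPM, a ratio of 2.07. CYTOR, a lncRNA named for its link to the cytoskeleton, was at 30.9, 28.9 and 27.1 CPM against 63.0, 60.5 and 56.8 CPM, a ratio of 2.07. Its transcript matches that of MIR4435-2HG over 88.4% of its length at 99.1% identity, so the counts of this pair are uncertain. MIR4435-2HG rose as well, with a log2 fold change of 0.69 ± 0.06 (SE, edgeR adjusted p = 1.66e-08).

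In all, 5 of the 67 higher genes (7.46%) and 4 of the 70 lower genes (5.71%) held a microRNA gene, beside 32 of the 992 other measured lncRNA genes (3.23%). A list of 37 host genes, put together from symbols, had 20 measured genes. Of these, 2 were higher and 3 were lower members, beside 5.93% and 6.2% of all measured lncRNA genes. Of the other 15, 5 passed the edgeR threshold (adjusted p under 0.05) as higher and 7 as lower, beside 12.5% and 20% of the 992 measured lncRNA genes that were not members. Among these, MIR22HG, a host gene induced by stress, had 1842, 776 and 923 counts against 331, 567 and 577 and a log2 fold change of -0.79 ± 0.08 (SE, edgeR adjusted p = 9.39e-08). DLEU2, the host of miR-15a and miR-16-1, had 94, 48 and 49 counts against 49, 98 and 96 and a log2 fold change of 0.79 ± 0.15 (SE, edgeR adjusted p = 0.000141). The called host genes thus lay in both directions.

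**Figure D3:**
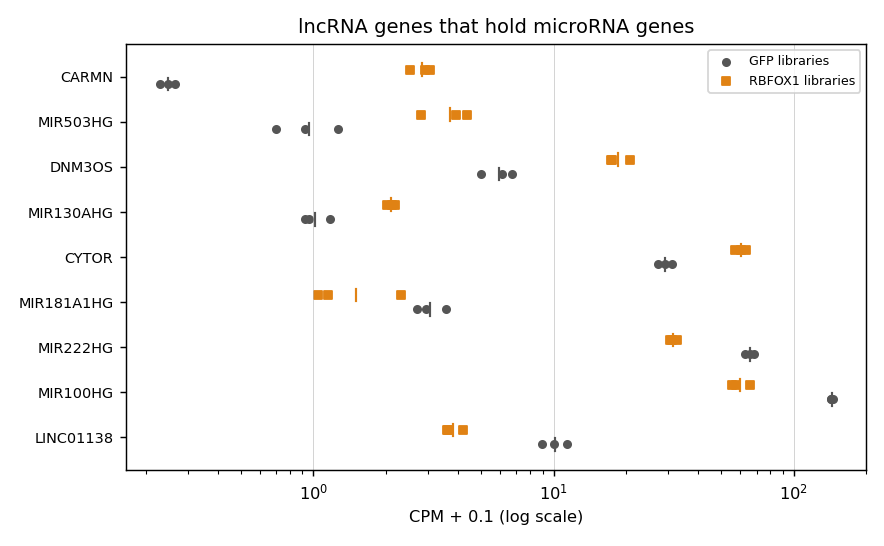
Level of the 9 member genes that hold a microRNA gene in each library, in CPM plus 0.1 on a log scale. Grey circles are GFP libraries, orange squares RBFOX1 libraries, and vertical bars the group means. The 5 upper genes are higher and the 4 lower genes are lower in the RBFOX1 libraries, and MIR181A1HG has the narrowest gap between the groups.

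The other members on the lists that were compared came from the HOX clusters and from lncRNAs linked to cancer. HOXB-AS3, antisense in the HOXB cluster, was at 13.5, 15.7 and 12.6 CPM in the GFP libraries and at 29.1, 28.3 and 29.2 CPM in the RBFOX1 libraries, a ratio of 2.07. HAGLR, antisense at HOXD1, was at 3.31, 5.94 and 5.74 CPM against 1.88, 1.37 and 1.68 CPM, 2.92-fold lower. Of 9 measured HOX lncRNAs these were the only members, beside 5.93% higher and 6.2% lower members among all measured lncRNA genes. Among the other 7, edgeR called 2 higher and 3 lower, beside 12.5% and 20% of all measured non-members. HOTAIR, from the HOXC cluster, had a log2 fold change of 0.59 ± 0.08 (SE, edgeR adjusted p = 4.70e-06), and HOXA-AS2 had -1.11 ± 0.24 (SE, edgeR adjusted p = 0.000797).

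Of 27 measured lncRNAs linked to cancer or glioma, 5 were higher members and 1 was a lower member, beside 5.93% and 6.2% of all measured lncRNA genes. UCA1, first described in urothelial carcinoma, was at 1.51, 1.90 and 1.79 CPM in the GFP libraries and at 4.31, 4.10 and 5.16 CPM in the RBFOX1 libraries, a ratio of 2.53. LINC01503 was at 0.946, 1.15 and 1.04 CPM against 3.77, 3.94 and 4.69 CPM, a ratio of 3.69. CYTOR, DNM3OS and LINC01133, described above, were the others. The lower member was LUCAT1, a lncRNA induced by oxidative stress and by interferon, at 4.47, 3.38 and 3.95 CPM against 0.673, 0.804 and 1.07 CPM, 4.25-fold lower.

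Of the other 21 on that list, edgeR called 5 higher and 7 lower, again beside 12.5% and 20% of all measured non-members. The nuclear lncRNAs MALAT1 and NEAT1 were not called, with log2 fold changes of 0.10 ± 0.13 (SE, edgeR adjusted p = 0.568) and -0.13 ± 0.07 (SE, edgeR adjusted p = 0.109). None of 5 measured p53-responsive lncRNAs was a member, and edgeR called 3 of them lower (20% of all measured non-members were), TP53TG1 among them at a log2 fold change of -0.95 ± 0.11 (SE, edgeR adjusted p = 6.65e-07). Of 5 measured lncRNAs linked to interferon, LUCAT1 was a lower member, beside 6.2% of all measured lncRNA genes. Of the other 4, edgeR called 0 and DESeq2 0, and 1 had an unadjusted edgeR p under 0.05.

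Further abundant genes among the higher members were LNCAROD, SBF2-AS1, KCNQ1OT1, LOXL1-AS1, ENSG00000283462 and NIHCOLE. LNCAROD, whose name records a role as an activator of the WNT antagonist gene DKK1, was at 43.7, 54.4 and 52.7 CPM in the GFP libraries and at 107, 116 and 99.3 CPM in the RBFOX1 libraries, a ratio of 2.13. It lies 132832 bases from DKK1 on chromosome 10. DKK1 was at 321, 306 and 326 CPM against 735, 799 and 747 CPM, with a log2 fold change of 1.21 ± 0.05 (SE, edgeR adjusted p = 1.53e-13). PRKG1-AS1, which overlaps DKK1 on the opposite strand, was also a higher member, at 2.32, 1.48 and 2.09 CPM against 4.31, 5.47 and 4.49 CPM.

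KCNQ1OT1 is the long imprinted transcript antisense to KCNQ1, and in the embryo it represses genes near it. It was at 21.1, 24.8 and 21.1 CPM in the GFP libraries and at 57.2, 39.5 and 40.8 CPM in the RBFOX1 libraries, a ratio of 2.05, with RBFOX1 replicate 1 the highest. KCNQ1 itself had 29, 17 and 20 counts against 7, 18 and 21 and was not called (log2 fold change -0.09 ± 0.27 SE, edgeR adjusted p = 0.840). CDKN1C, the coding gene whose start lies nearest, had 320, 134 and 169 counts against 168, 314 and 407 and rose by a log2 fold change of 0.95 ± 0.10 (SE, edgeR adjusted p = 9.51e-08).

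Position relative to protein-coding genes is a feature that the selection did not use. Of the higher genes 28 (41.8%) and of the lower genes 32 (45.7%) overlapped a protein-coding gene on the opposite strand, beside 518 (52.2%) of the 992 other measured lncRNA genes. A divergent start, within 2 kb of a coding gene's start on the opposite strand, was counted only in genes that overlapped no coding gene. It was seen in 5 higher and 3 lower genes, beside 140 (14.1%) of the others. Such starts in genes that overlap a coding gene were counted as overlaps. Farther than 10 kb from any protein-coding gene lay 18 higher genes (26.9%) and 23 lower genes (32.9%), beside 155 (15.6%) of the others. The share far from coding genes was larger among the members, and the share with a divergent start and no overlap smaller. These shares were not tested against each other.

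**Figure D4:**
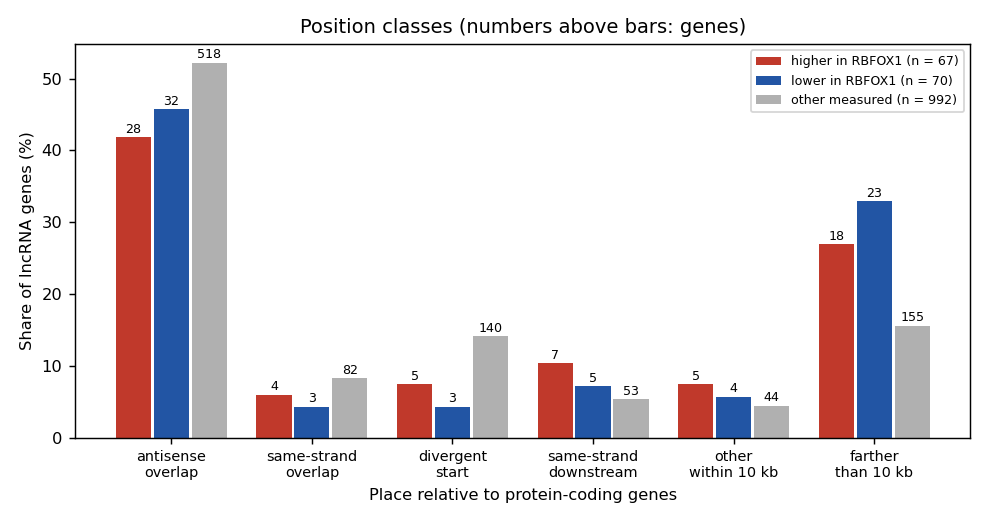
Share of lncRNA genes (y axis, %) in each class of position relative to protein-coding genes (x axis), for the 67 higher, the 70 lower and the 992 other measured genes, with the number of genes above each bar. The class farther than 10 kb holds 26.9% and 32.9% of the members and 15.6% of the others.

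The nearest protein-coding gene of each member was not used in the selection, and its change was taken from the edgeR fit over all genes, in which 30.3% of 14094 protein-coding genes were called higher and 28.8% lower. The 67 higher members had 65 different nearest genes, of which 57 had enough counts to be tested. Of these, 32 (56.1%) were called higher and 12 (21.1%) lower, and their median log2 fold change was 0.46. The 70 lower members also had 65 nearest genes, and of the 55 tested, 16 (29.1%) were called higher and 29 (52.7%) lower, with a median of -0.33. The nearest genes of the other measured lncRNA genes, 824 tested, were called higher in 29.2% and lower in 30.1%, with a median of 0.00.

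Where the neighbour lay within 10 kb, 26 of 44 (59.1%) were called higher beside higher members and 23 of 39 (59.0%) were called lower beside lower members. Where it lay farther away, 6 of 13 (46.2%) and 6 of 16 (37.5%) were. For the other measured lncRNA genes, neighbours within 10 kb were called higher in 28.3% and lower in 30.4%. Their farther neighbours, 99 tested, were called higher in 36.4% and lower in 29.3%. Within 10 kb, the share of neighbours called in the member's direction was above the share over all protein-coding genes in both sets. Neighbouring genes share a chromosomal region, and these shares were not tested against each other.

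**Figure D5:**
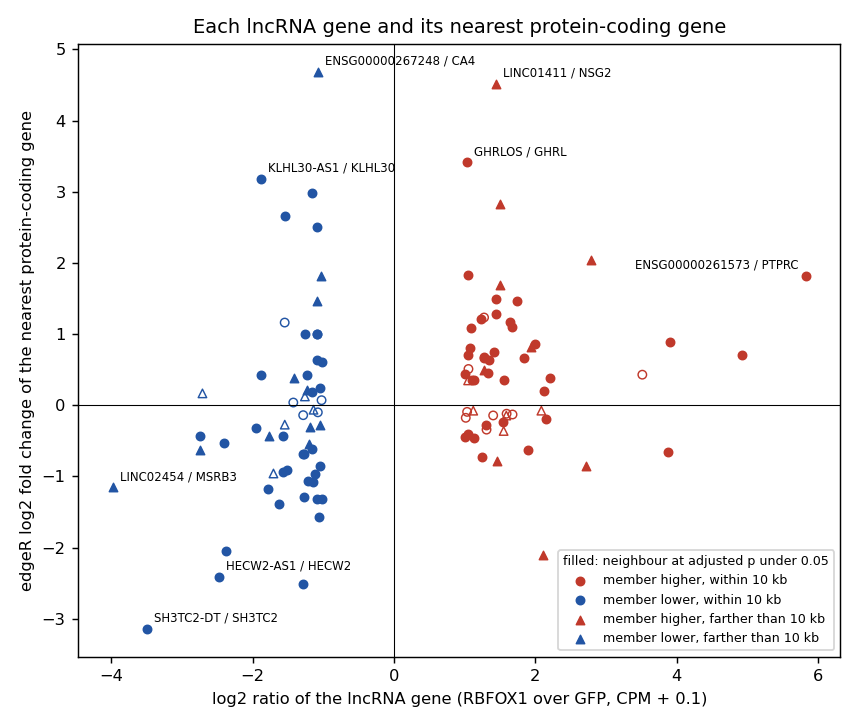
log2 ratio of each member (x axis) and edgeR log2 fold change of its nearest protein-coding gene (y axis), RBFOX1 over GFP. Circles are neighbours within 10 kb, triangles farther ones, filled marks were called at an adjusted p under 0.05, and red and blue mark higher and lower members. The gap in the middle of the x axis is made by the selection, and SH3TC2-DT with SH3TC2 lies at the lower left.

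Divergent pairs without overlap were few. Of the 5 higher members with a divergent start, 4 had a partner called higher and 1, MAN1B1-DT, a partner called lower. Of the 3 lower members 1 had a partner called lower, 1 (BCAN-AS1) a partner called higher, and 1 (ZMIZ1-AS1) a partner that was not called. For the other measured lncRNA genes with a divergent start, 138 nearest genes were tested, and 26.8% were called higher and 30.4% lower. The pairs with the largest change of the partner in the member's direction were SH3TC2-DT and HK2-DT. SH3TC2-DT starts 76 bases from SH3TC2, a gene for a protein of endosomal recycling that is mutated in a neuropathy. SH3TC2 had 951, 494 and 538 counts in the GFP libraries and 44, 64 and 56 in the RBFOX1 libraries, a log2 fold change of -3.14 ± 0.11 (SE, edgeR adjusted p = 9.79e-15). HK2-DT starts 140 bases from HK2, which codes for hexokinase 2 of glycolysis. HK2-DT had 13, 8 and 8 counts against 19, 28 and 29, and HK2 had 77, 49 and 45 against 71, 136 and 142, a log2 fold change of 1.46 ± 0.14 (SE, edgeR adjusted p = 2.89e-08).

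The promoter windows of SH3TC2-DT and HK2-DT are shown because each also covers the start of the coding partner. They are from RefSeq (GRCh38.p14), 300 bases each, 5′ to 3′ on the strand of the lncRNA, with the 50 bases after the start in RefSeq in capitals. That start lies 78 bases past the GENCODE start for SH3TC2-DT and at the GENCODE start for HK2-DT, and the distances above use GENCODE. The table held a window for 74 of the 137 genes. The windows are chr5:149063067-149063366 on the plus strand and chr2:74833938-74834237 on the minus strand.
SH3TC2-DT: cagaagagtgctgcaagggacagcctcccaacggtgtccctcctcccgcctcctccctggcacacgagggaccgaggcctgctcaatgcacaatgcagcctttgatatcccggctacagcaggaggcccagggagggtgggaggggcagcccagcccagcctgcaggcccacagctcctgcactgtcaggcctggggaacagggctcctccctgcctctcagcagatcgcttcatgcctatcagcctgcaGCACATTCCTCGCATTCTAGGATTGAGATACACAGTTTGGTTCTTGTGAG
HK2-DT: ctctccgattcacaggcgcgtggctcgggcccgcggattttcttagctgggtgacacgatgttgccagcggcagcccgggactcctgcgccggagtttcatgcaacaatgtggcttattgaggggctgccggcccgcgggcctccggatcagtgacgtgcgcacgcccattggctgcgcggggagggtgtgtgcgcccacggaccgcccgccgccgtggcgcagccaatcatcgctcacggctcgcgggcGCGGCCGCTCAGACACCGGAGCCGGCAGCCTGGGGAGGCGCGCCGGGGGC

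The windows differ in base composition. That of HK2-DT has 39 CG dinucleotides and a GC content of 71.7%, whereas that of SH3TC2-DT has 7 and 61.7%. The median of the 35116 windows of the table was 14 CG dinucleotides and 58.7% GC, and 91.3% of windows had fewer CG dinucleotides than HK2-DT and 36.8% fewer than SH3TC2-DT.

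Antisense pairs in which both genes were lower included HECW2-AS1 with HECW2, a ubiquitin ligase gene, which had 294, 138 and 179 counts in the GFP libraries and 10, 31 and 44 in the RBFOX1 libraries (log2 fold change -2.41 ± 0.17 SE, edgeR adjusted p = 2.72e-10). ENSG00000225339 with SMIM29, PPP1R26-AS1 with PPP1R26 and B3GALT5-AS1 with B3GALT5 were such pairs too, the coding genes with log2 fold changes of -1.18, -1.06 and -1.56 (edgeR adjusted p = 1.44e-10, 1.24e-11 and 8.20e-08). EMX2OS, opposite the homeobox gene EMX2, had 52, 16 and 25 counts against 6, 5 and 16. EMX2 had 37, 31 and 39 against 6, 19 and 13, a log2 fold change of -1.08 ± 0.31 (SE, edgeR adjusted p = 0.00681), and this call was lost without RBFOX1 replicate 3 (-0.88, adjusted p = 0.0620). KCNJ5, opposite KCNJ5-AS1, had 14, 9 and 8 counts against 2, 3 and 4, and its call (adjusted p = 0.0261) was lost without GFP replicate 2, RBFOX1 replicate 2 or RBFOX1 replicate 3 (adjusted p = 0.0594, 0.0730 and 0.0735).

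Lower members that lay beside or within falling genes without overlapping them on the opposite strand were LINC01537, ENSG00000258976, ENSG00000249328, ENSG00000260412 and MIR100HG. PDE2A, a phosphodiesterase gene 2912 bases from LINC01537, was at 26.5, 26.1 and 28.3 CPM in the GFP libraries and at 4.98, 4.51 and 5.10 CPM in the RBFOX1 libraries (log2 fold change -2.52 ± 0.10 SE, edgeR adjusted p = 8.59e-14). LTBP2, a gene of extracellular matrix near ENSG00000258976, changed by -1.39 ± 0.06 (SE, edgeR adjusted p = 5.35e-13), and HEY1, a Notch target near ENSG00000249328, by -1.32 ± 0.20 (SE, edgeR adjusted p = 1.57e-05). LINGO2 overlaps ENSG00000260412 on the same strand and changed by -2.04 ± 0.17 (SE, edgeR adjusted p = 2.64e-09), and BLID overlaps MIR100HG on the same strand and changed by -1.29 ± 0.29 (SE, edgeR adjusted p = 0.000847). For genes that overlap on the same strand, reads that fit both were left out by the authors' counting, and the division of the rest is uncertain.

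Higher members with rising neighbours included MKX-AS1 and UNC5C-AS1. MKX, a homeobox gene of tendon, was at 154, 148 and 158 CPM in the GFP libraries and at 334, 338 and 347 CPM in the RBFOX1 libraries (log2 fold change 1.10 ± 0.05 SE, edgeR adjusted p = 2.49e-13). MKX-AS1 was at 4.30, 4.21 and 4.18 CPM against 13.2, 14.2 and 13.7 CPM, a ratio of 3.19. UNC5C, a netrin receptor gene, changed by 1.28 ± 0.06 (SE, edgeR adjusted p = 1.26e-12) and UNC5C-AS1 by a ratio of 2.73. DNM3, opposite DNM3OS, had 26, 16 and 12 counts against 24, 34 and 31 and changed by 1.17 ± 0.25 (SE, edgeR adjusted p = 0.000713).

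PGRMC2 near LINC02615, UAP1 overlapping ENSG00000272574 on the same strand and TEAD4 before ENSG00000250899 rose by log2 fold changes of 1.83, 1.08 and 1.5 (edgeR adjusted p = 3.72e-12, 1.87e-13 and 8.18e-09). ENSG00000250899 starts 761 bases past the end of TEAD4, a transcription factor gene, on the same strand, and transcription running on past a gene cannot be told apart here from a separate transcript. It had 25, 8 and 11 counts against 13, 29 and 50, and TEAD4 had 113, 50 and 49 against 86, 156 and 199. GHRL, opposite GHRLOS, had 1, 0 and 0 counts against 1, 2 and 8, too few to give its change a size. PYGL, the liver glycogen phosphorylase gene 11776 bases from ENSG00000258711, rose by 2.04 ± 0.05 (SE, edgeR adjusted p = 3.50e-17).

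In some pairs the directions were opposite. KLHL30-AS1 was at 2.71, 3.38 and 2.98 CPM in the GFP libraries and at 0.807, 0.563 and 0.872 CPM in the RBFOX1 libraries, 3.69-fold lower. KLHL30, on the opposite strand, had 31, 24 and 14 counts against 99, 161 and 206, a log2 fold change of 3.18 ± 0.16 (SE, edgeR adjusted p = 2.93e-12). LINC00920, 3732 bases past the endothelial cadherin gene CDH5, was at 11.6, 10.6 and 11.9 CPM against 3.09, 4.42 and 4.02 CPM, whereas CDH5 had 2, 4 and 2 counts against 9, 14 and 16 (log2 fold change 2.65 ± 0.47 SE, edgeR adjusted p = 9.28e-05). VAC14 and SBF2 fell opposite the higher members VAC14-AS1 and SBF2-AS1, by log2 fold changes of -0.65 ± 0.07 and -0.63 ± 0.06 (SE, edgeR adjusted p = 6.87e-08 and 1.08e-08). VSIG8 and CLDN14, opposite ENSG00000272668 and LNCTSI, had at most 2 counts in any GFP library and 2 to 8 in the RBFOX1 libraries.

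In 6 places on the genome, members lay within 100 kb of each other, 13 genes in all, and in 5 of the 6 they had 1 direction. On chromosome 1, BCAN-AS1, ENSG00000272405 and BCAN-AS2 follow each other on the minus strand from 156637783 to 156661424. BCAN, the gene of the brain proteoglycan brevican, lies there on the other strand, and BCAN-AS1 has a divergent start and does not overlap it. They were at 31.4, 34.6 and 37.0 CPM, at 56.9, 73.6 and 68.3 CPM and at 16.3, 17.9 and 15.9 CPM in the GFP libraries. In the RBFOX1 libraries they were at 17.0, 16.4 and 15.1 CPM, at 33.0, 31.9 and 28.4 CPM and at 9.01, 5.31 and 6.44 CPM, so all 3 were 2.12- to 2.39-fold lower. BCAN was scarce, with 10, 10 and 7 counts against 6, 12 and 23. Its log2 fold change of 1.00 ± 0.37 (SE, edgeR adjusted p = 0.0329) was not called without GFP replicate 1 (0.76, adjusted p = 0.146), GFP replicate 3 (0.97, adjusted p = 0.0629) or RBFOX1 replicate 3 (0.64, adjusted p = 0.285).

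On chromosome 11, SBF2-AS1 and LINC02709 overlap on opposite strands, with starts 1265 bases apart. SBF2-AS1 was at 23.0, 22.3 and 20.2 CPM in the GFP libraries and at 82.7, 83.2 and 78.7 CPM in the RBFOX1 libraries, a ratio of 3.73. LINC02709 was at 2.07, 1.90 and 2.68 CPM against 10.5, 10.8 and 10.5 CPM, a ratio of 4.61. DLGAP1-AS1, 4637 bases from DLGAP1-AS2 on chromosome 18, was at 31.1, 34.2 and 32.2 CPM against 12.1, 13.4 and 11.9 CPM, 2.60-fold lower. DLGAP1, the postsynaptic scaffold gene that both lie opposite, had fewer than 10 counts in all and was not tested. ENSG00000269902 lies within MIR222HG on the same strand and was 3.02-fold lower, LINC01547 and ENSG00000276529 on chromosome 21 were both higher, and ENSG00000272668 (lower) and LINC01133 (higher) were the pair that differed in direction.

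LINC02454 has no coding gene within 10 kb. The nearest gene body is MSRB3, which had 460, 243 and 288 counts in the GFP libraries and 77, 125 and 126 in the RBFOX1 libraries (log2 fold change -1.15 ± 0.10 SE, edgeR adjusted p = 8.18e-09). The nearest start, at 235349 bases, is that of HMGA2, a gene for a chromatin protein of embryonic and tumour cells that is a known target of let-7. HMGA2, named after its values were seen, had 918, 485 and 586 counts against 12, 17 and 19, a log2 fold change of -4.93 ± 0.13 (SE, edgeR adjusted p = 6.73e-17). Both of these coding genes thus fell.

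The RBFOX motif was sought on the transcript strand of the longest spliced transcript of each gene, as the letters TGCATG and GCATG, so every TGCATG site is also counted as a GCATG site. TGCATG was present in 37 of the higher genes (55.2%), 35 of the lower genes (50%) and 46.2% of all measured lncRNA genes, at 0.285, 0.290 and 0.293 sites per kb. GCATG was present in 88.1%, 84.3% and 81.1%. The density of TGCATG was thus nearly the same in both directions and in all measured lncRNA genes. Examples from genes with large ratios are printed as transcript sequence in DNA letters, 30 bases around the motif, with the motif in capitals.
JAKMIP2-AS1 (higher, motif at chr5:147638565-147638570, plus strand): tatatgtgtgtgTGCATGctactgttgaaa
LINC01133 (higher, motif at chr1:159983894-159983899, plus strand): ccagcagagtccTGCATGgcagcaaggggc
LINC02454 (lower, motif at chr12:65606085-65606090, plus strand): gggaagtggctgTGCATGgagactagaaat
SH3TC2-DT (lower, motif at chr5:149065702-149065707, plus strand): agaagagtaacaTGCATGacttacggtttt

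By structure, the longest transcripts of the higher and lower genes had medians of 2648 and 2236 bases and of 2 exons each, beside 2421 bases and 2 exons over all measured lncRNA genes. Single-exon genes made up 26.9% of the higher and 17.1% of the lower genes, beside 30.6% of all measured. The median GC content was 47.3%, 47.3% and 47.2%.

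The remaining members were given only by range. Higher members with ratios of 2.02 to 4.43 not described above were DNAJC27-AS1, ENSG00000267886, TMPO-AS1, ENSG00000214248, ENSG00000271936, ENSG00000272821, LNCOC1, ENSG00000236255, LINC02901, TMEM254-AS1, ENSG00000234160, FOXP1-DT, TMCC1-DT, EIF2AK3-DT, ENSG00000232611, LINC01411, HCP5, ENSG00000259727, DIRC3, MAN1B1-DT, ENSG00000187951, ENSG00000222042, LINC02934, LINC02475, CEBPB-AS1, CDK6-AS1, ENSG00000282057, LINC03061, MAP3K4-AS1 and ENSG00000270605. Of these, TMPO-AS1, antisense to the gene of a nuclear lamina protein, had 61, 23 and 38 counts against 37, 74 and 72. HCP5, a lncRNA of the HLA region, had 70, 42 and 45 counts against 71, 126 and 116.

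Lower members with folds of 2.04 to 3.89 not described above were ENSG00000261253, NAV2-AS6, LINC01583, ENSG00000250697, GAS6-AS1, ENSG00000273132, LINC00504, ENSG00000245025, ENSG00000255345, LINC02968, ZMIZ1-AS1, ENSG00000203434, ENSG00000253775, LINC01204, ALDH1A3-AS1, ENSG00000266680, LGALS8-AS1, LINC03040, LINC01426, LINC02073, LINC02984, LINC01435, LINC01060, CNIH3-AS2, TIPARP-AS1, LINC01910, ZNF516-AS1, RRAGC-DT, GJD3-AS1, ENSG00000270055, ENSG00000267248, C1RL-AS1, ENSG00000275202, ENSG00000261578, ENSG00000232053 and L3MBTL2-AS1. GAS6-AS1, opposite the gene of the TAM receptor ligand GAS6, had 61, 29 and 35 counts against 8, 6 and 12. LINC01583, the most abundant of these, was at 20.4 CPM in the GFP libraries and 5.93 CPM in the RBFOX1 libraries on average. LINC02968 lies in the pseudoautosomal region and has an identical annotated copy, and PRKG1-AS1 and LINC00504 share 44.4% and 30.7% of their transcripts with other genes at 95% identity or more, so their counts are less certain.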

How the data were processed

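RNA of 6 A172 samples (3 GFP, 3 RBFOX1) was sequenced on an Illumina instrument. Per the labels and the study's methods, the authors aligned read pairs to GRCh38 with HISAT2 and made the deposited counts, raw and per gene, with HTSeq-count on Ensembl release 87 in the intersection-strict mode, keeping strand. A pair therefore had to lie wholly within the exons of 1 gene of that release. Pairs on no gene line were 38.2% to 48.0% of all pairs and did not enter library sizes or tests. They include the pairs that fit several genes, 6.89% to 9.35% of all pairs. A deposited table of the authors' own fold changes and p-values was not used.

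Biotypes, symbols and positions were taken from GENCODE 44, which held 98.1% of the gene identifiers. CPM was computed from the gene counts. Members and gene lists were chosen with earlier results of these data known, so no list is independent evidence. Neighbouring genes, the list genes that are not members and RBFOX1 were tested with edgeR 4.0.16 (TMM, quasi-likelihood, two-sided) in R 4.3.3 over genes with at least 10 counts in all, with Benjamini-Hochberg adjustment and a threshold of 0.05, and the test was checked on simulated data. DESeq2 1.42.0 was an alternative. Named in full were the 10 largest and 10 smallest ratios, list members, members whose nearest coding gene within 10 kb changed at least 2-fold at the threshold, and the 5 most abundant members; other details were chosen after their values were seen. Intervals of count ratios are exact binomial at 95%. Matching transcripts were sought with blastn 2.17.0 at 95% identity or more. Alternatives varied the scaling, the offset, the limits of the rule, the filter, the replicate block and the libraries.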

Additional observations from a re-analysis of the deposited data

How the results depend on the processing

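The number of members depends on the limits of the rule. An offset of 1 CPM gave 40 higher and 32 lower genes, a minimum mean of 0.5 CPM 118 and 104, a minimum of 5 CPM 17 and 22, a ratio limit of 1.5 152 and 175, and a limit of 4 16 and 11. Scaling by TMM gave 59 and 74, by DESeq2 size factors 61 and 72, and allowing overlap 67 and 71. Leaving out 1 library gave 62 to 75 higher and 65 to 81 lower genes, of which 59 to 63 and 60 to 68 were among the 67 and 70, and without GFP replicate 1, which stood apart, 75 and 66 (63 and 60 shared). The edgeR test called 9581 genes in all, and 8326 to 9307 without 1 library, 9579 with DESeq2 size factors, 9521 with no filter and 7669 by DESeq2. Same-numbered samples did not deviate together (correlations -0.10, 0.01 and -0.05), so the numbers do not pair them, and with the replicate number as a block 9046 genes were called. By nearest start site, 36 of 56 neighbours of higher members were called higher and 31 of 55 of lower members lower. TGCATG in all annotated exons together was found in 62.7% of higher and 60% of lower genes, beside 54.7% of all measured lncRNA genes. No log2 fold change of the 27 named neighbours within 10 kb changed sign, and 254 of 267 alternative values kept their call. DESeq2 did not call BCAN, VSIG8, CLDN14, KCNJ5 or GHRL (adjusted p = 0.226, 0.0654, 0.0889, 0.190 and 0.0810), the block did not call BCAN (adjusted p = 0.0873), and the rest were the libraries named above. The cause was not tested. Depth limits the 33 members with fewer than 30 counts in the lower group.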
